A study of Mus musculus with 6 samples.

Results

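The 40 genes described here drive or restrain cell division. They were chosen by name from the 55401 genes of the tables, and fall into 16 genes of mitosis and its regulators, 10 of DNA replication, 10 of G1 and S entry and 4 inhibitors of cyclin-dependent kinases (CDKs). They were measured by bulk RNA sequencing of lymphatic endothelial cells (LECs), which line lymphatic vessels, sorted from the dorsal dura mater of wild-type male C57BL/6J mice as LYVE-1+ Podoplanin+ CD31+ CD45- cells. At 4 weeks of age the mice had received, in the cisterna magna, an AAV9 vector encoding full-length mouse VEGF-C (AAV-VEGF-C) or soluble domains of VEGFR-3 unable to bind VEGF-C (AAV-CTRL), so that animals of both groups carried a vector. Each group had 3 libraries, numbered 1 to 3 after the repeat of the experiment, and each library pooled 10 to 12 animals.

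In a dividing cell, D-type cyclins with CDK4 and CDK6 release E2F transcription factors from the RB protein. E2F factors switch on the genes of DNA synthesis, among them the MCM helicase and the sliding clamp PCNA. Mitotic genes follow later under B-MYB and FOXM1, and CDK inhibitors hold the cycle in G1. VEGF-C acts through VEGFR-3 and is known to make LECs divide, whereas most LECs of adult vessels are quiescent. The comparison of the groups asks how the RNA of these genes differed in dural LECs of mice given VEGF-C.

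The promoters are shown because genes of late division share short sequence elements through which they are switched on together. RefSeq promoters (GRCm38.p6) were matched for 31 of the 40 genes. The CCAAT box (CCAAT on either strand), bound by NF-Y, was found in the 250 bases before the start of 92.3% of 13 mitosis genes and 88.9% of 9 replication genes, against 35.1% of 20595 promoters of all genes. It was found in 16.7% of 6 promoters of G1 and S entry and in 33.3% of 3 promoters of CDK inhibitors. The CHR element (TTTGAA), through which the DREAM and B-MYB complexes act, was in 38.5% of the mitosis promoters and 15.3% of all. E2F letters (TTTCGCGC or TTTGGCGC) were in 22.2% of the replication promoters, 7.69% of the mitosis promoters and 0.777% of all. The 150 bases before the start are given for 4 mitosis genes and 1 helicase gene described below, 5′ to 3′ on the gene's strand, with matches to these letters on either strand in capitals. In *Mcm6* the E2F matches of both strands overlap at the upstream site.
Mki67 (chr7:135716380-135716529, minus strand): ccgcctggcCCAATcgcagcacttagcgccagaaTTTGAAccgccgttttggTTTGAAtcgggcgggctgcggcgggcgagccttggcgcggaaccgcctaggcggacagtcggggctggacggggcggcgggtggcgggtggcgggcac
Kif11 (chr19:37376232-37376381, plus strand): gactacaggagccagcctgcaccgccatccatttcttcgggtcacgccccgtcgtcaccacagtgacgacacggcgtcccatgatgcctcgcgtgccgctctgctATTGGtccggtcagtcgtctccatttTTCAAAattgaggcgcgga
Plk1 (chr7:122159285-122159434, plus strand): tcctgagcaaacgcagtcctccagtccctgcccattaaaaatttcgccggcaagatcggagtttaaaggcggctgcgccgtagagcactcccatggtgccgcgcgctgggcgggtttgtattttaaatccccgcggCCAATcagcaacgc
Cenpf (chr1:189688087-189688236, minus strand): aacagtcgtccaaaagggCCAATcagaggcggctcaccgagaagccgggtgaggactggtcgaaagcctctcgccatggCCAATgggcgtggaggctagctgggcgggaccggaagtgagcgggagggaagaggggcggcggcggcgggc
Mcm6 (chr1:128359706-128359855, minus strand): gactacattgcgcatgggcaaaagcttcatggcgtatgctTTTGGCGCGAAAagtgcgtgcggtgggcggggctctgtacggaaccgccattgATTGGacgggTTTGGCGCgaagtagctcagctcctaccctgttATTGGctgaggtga
The *Pcna* promoter held a CCAAT box 87 bases before its RefSeq start. These letters were matched by sequence alone, and binding was not measured.

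Totals ran from 6530190 to 12399429 counts in AAV-CTRL and from 564430 to 3261814 in AAV-VEGF-C, so that depth and treatment cannot be told apart. The 10 LEC markers were detected in all 6 libraries. They summed to 616, 527 and 651 TPM in AAV-CTRL against 350, 209 and 170 TPM in AAV-VEGF-C, with no overlap. Of the 10, 7 had lower TPM without overlap, as did 4445 of the 7234 tested genes of any kind averaging 5 TPM or more. On counts scaled between libraries, 5 of the 10 had positive and 5 negative log2 fold changes (median -0.029), and none was called. Olfactory, vomeronasal and taste receptors and other families with no known use in endothelium (silent families) averaged 0.0245 to 0.0357 TPM (a level scaled for gene length and library total) per gene in AAV-CTRL against 0.337 to 0.387 TPM in AAV-VEGF-C, and 181 of their 210 tested genes were called higher in AAV-VEGF-C. For 208 of these 210, all AAV-VEGF-C libraries but not all AAV-CTRL libraries reached the cutoff of the filter on low counts. The filter thus favoured genes that were higher in AAV-VEGF-C. Fibroblast markers summed to 1894 to 4322 TPM in AAV-CTRL against 439 to 1394 TPM in AAV-VEGF-C, with no overlap and with none of the 10 at 0 except 1 (*Dpt*) in AAV-VEGF-C 1. Leukocyte markers followed the experiment: they summed to 15.3 and 14.3 TPM in libraries 1 of AAV-CTRL and AAV-VEGF-C, and to 284 to 840 TPM in the other 4, although the gate was CD45-. In AAV-CTRL 1, *Cd3e*, *Ms4a1*, *S100a8* and *S100a9* were at 0, and in AAV-VEGF-C 1 the last 3 of these. The 16 markers of dividing marrow precursors summed to 2.62 to 19.4 TPM in AAV-CTRL against 7.08 to 47.9 TPM in AAV-VEGF-C, and the groups overlapped. Of the 16, 6, 11 and 13 were detected in AAV-CTRL 1, 2 and 3, and 5, 10 and 15 in AAV-VEGF-C 1, 2 and 3. *Vpreb3* was at 0 in all 6 libraries and *Igll1* in the AAV-CTRL libraries. Only 5 were tested, and 1 was called higher, beside 10.5% of all genes tested. Of the 5, 2 reached the filter's cutoff in all AAV-VEGF-C libraries but not in all AAV-CTRL libraries. In bulk RNA, fewer cells of a type and less RNA per cell cannot be told apart. The part of these other cells and of the background in the results below was not tested beyond the values given.

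The 31 tested genes of cell division had a median of 3.731 in mean TPM, beside 3.715 over all genes tested. The tested mitosis genes were lower, with a median of 1.324, and the most abundant roles were those that hold or start G1. The 4 CDK inhibitors summed to 113.8 ± 23.6 TPM (SD, n = 3) in AAV-CTRL against 34.0 ± 13.5 TPM in AAV-VEGF-C. The genes of G1 and S entry summed to 90.3 ± 21.5 and 47.6 ± 16.3 TPM, and both of these sums did not overlap between groups. The replication genes summed to 65.6 ± 26.1 and 27.1 ± 12.1 TPM, and here the lowest AAV-CTRL library (38.7 TPM) lay below the highest AAV-VEGF-C library (39.0 TPM). The 16 mitosis genes summed to only 15.0 ± 3.23 TPM in AAV-CTRL against 21.3 ± 7.38 TPM in AAV-VEGF-C, and the groups overlapped. After the mean level of the silent families was taken from each gene, the mitosis sums were 14.5 ± 3.31 and 16.3 ± 7.15 TPM. Lower TPM was general in AAV-VEGF-C: of all 17459 genes tested, 36.4% had lower and 12.8% had higher TPM there with no overlap, and among the 31 tested cell cycle genes these counts were 10 and 2.

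**Figure D1:**
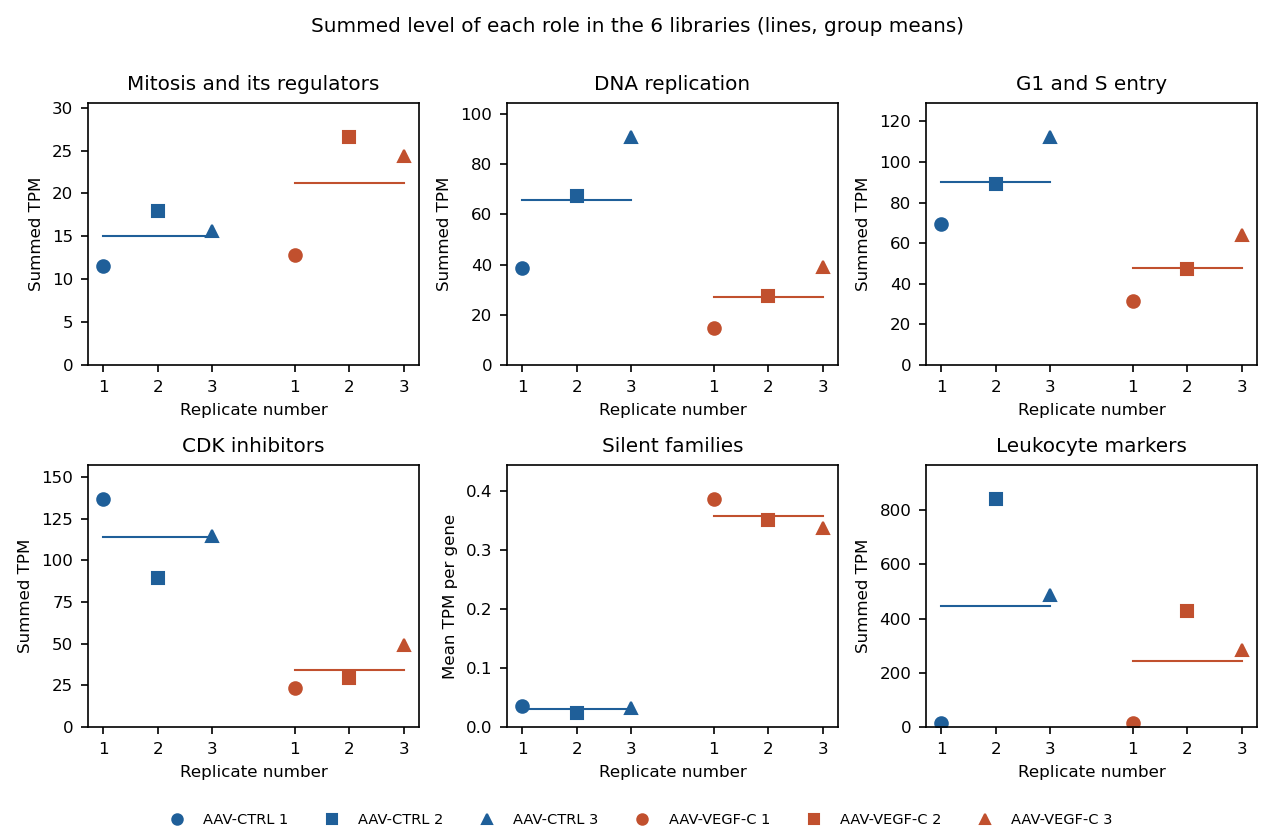
Summed TPM of the genes of each role (4 panels), mean TPM per gene of the silent families and summed TPM of the leukocyte markers, in each library, with lines at the group means; axes start at 0. The CDK inhibitors and the genes of G1 and S entry are lower in all 3 AAV-VEGF-C libraries, the mitosis genes overlap, the silent families lie at 0.337 to 0.387 TPM in AAV-VEGF-C, and the leukocyte markers are near 0 in both libraries numbered 1.

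At least 1 count was found for 40, 39 and 39 of the 40 genes in AAV-CTRL 1, 2 and 3, and for 37, 37 and 39 in AAV-VEGF-C 1, 2 and 3. When all libraries were drawn down to the smallest total, 32, 28 and 25 were found in AAV-CTRL against 37, 33 and 30 in AAV-VEGF-C. At that equal depth the groups overlapped, since AAV-VEGF-C 3 (30) lay below AAV-CTRL 1 (32). In AAV-VEGF-C 1, only 31 of the 40 genes had a TPM above the mean of the silent families.

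**Figure D2:**
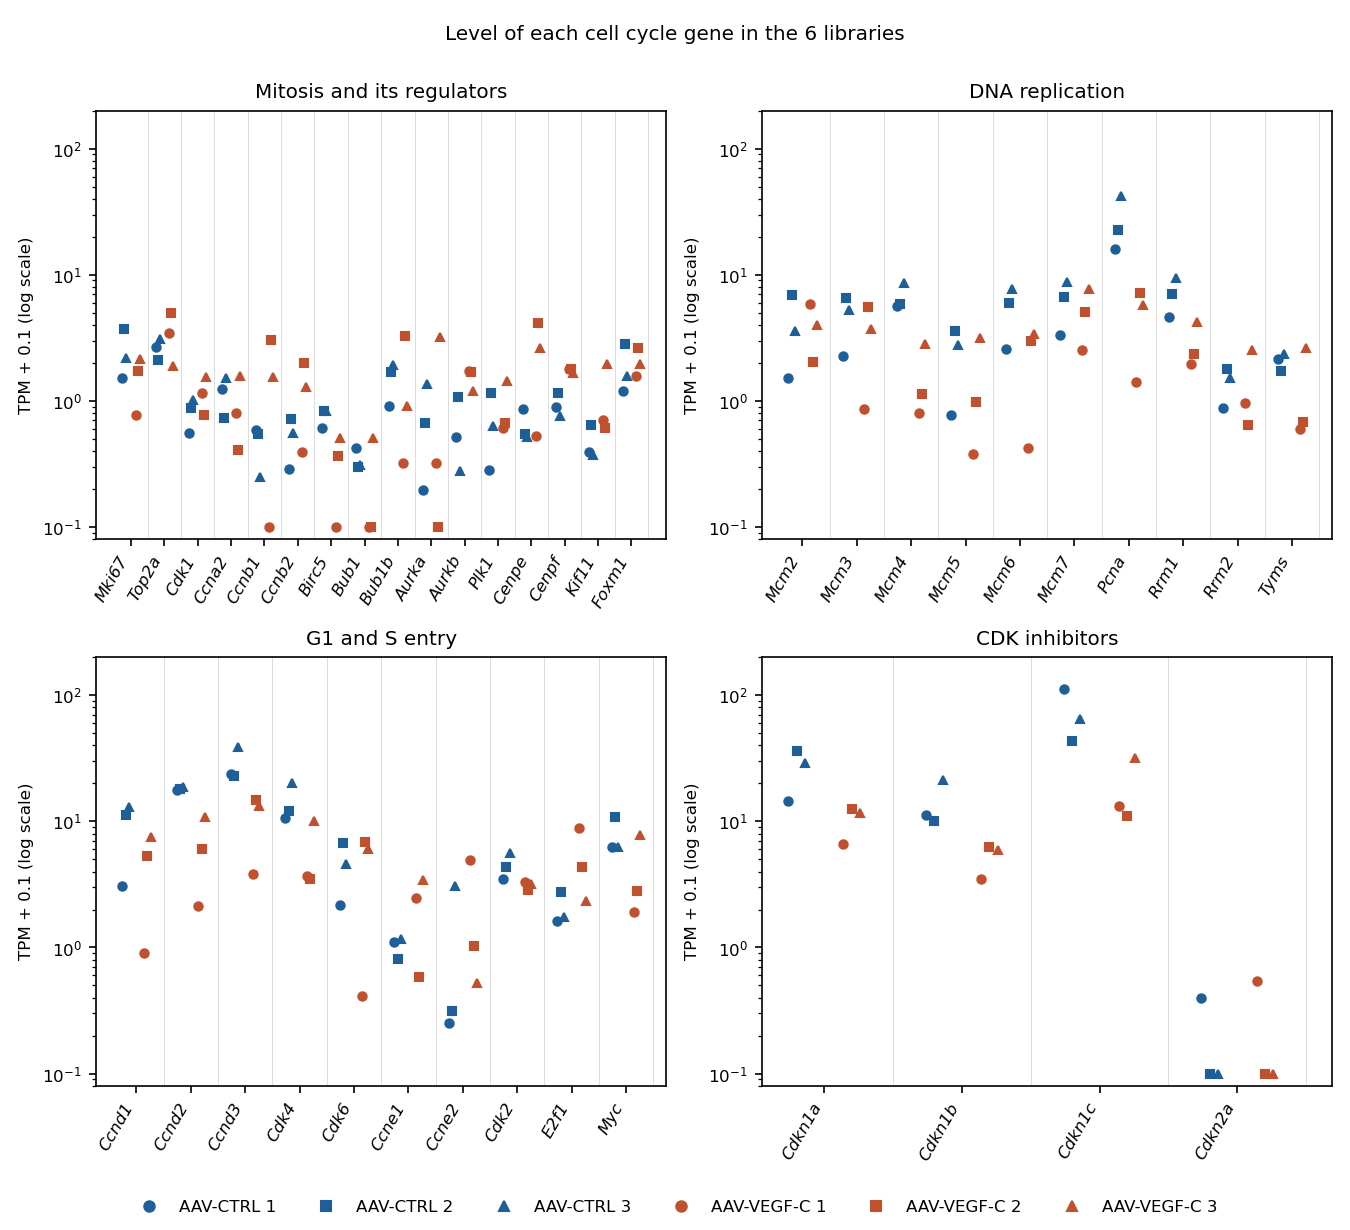
TPM (plus 0.1, log scale) of each of the 40 genes in the 6 libraries, by role; blue, AAV-CTRL; orange, AAV-VEGF-C; circles, squares and triangles are replicate numbers 1, 2 and 3. *Cdkn1c* is highest, the D-type cyclins, *Cdk4*, *Pcna*, *Cdkn1a* and *Cdkn1b* follow, and most mitosis genes lie between 0.1 and 5 TPM in both groups.

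The test compared counts scaled between libraries by TMM factors, with edgeR's quasi-likelihood test and Benjamini-Hochberg adjustment over all genes tested, and called an adjusted p under 0.05. Of the 40 genes, 31 passed the filter on low counts and were tested. *Plk1* was called higher in AAV-VEGF-C, where 10.5% of all genes tested were called higher, and *Pcna* was called lower, where 0.659% were called lower. When the experiment number, shared by both groups, was added as a block, *E2f1* was the 1 gene called higher (12.8% of all genes) and *Pcna* the 1 called lower (2.07% of all genes). In CPM, counts scaled to the library total, the groups did not overlap for 7 tested genes that were higher and 4 that were lower in AAV-VEGF-C, beside 20.6% and 19.1% of all genes tested. At an unadjusted edgeR p under 0.05, 7 of the 31 were higher and 3 lower, beside 3315 and 1590 of all 17459 genes tested. The median log2 fold change of the 31 was 0.32 and that of all genes tested was -0.0037.

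The change of these genes moved with their level, as it did over all genes. The 10 tested cell cycle genes that averaged 5 TPM or more had a median log2 fold change of -0.49, and 8 of them were negative, beside a median of -0.41 over all 7234 such genes. The 21 tested genes under 5 TPM had a median of 0.59, and 17 of them were positive, beside a median of 0.52 over 10225 such genes, of which 6952 were positive. *Aurkb*, *Plk1* and *Kif11* reached the filter's cutoff of about 2.04 CPM in all AAV-VEGF-C libraries but not in all AAV-CTRL libraries. Every AAV-CTRL value of *Aurkb* and *Plk1* lay under it, so that genes as low as these could be tested only if higher in AAV-VEGF-C. *Kif11* also reached it in AAV-CTRL 2.

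**Figure D3:**
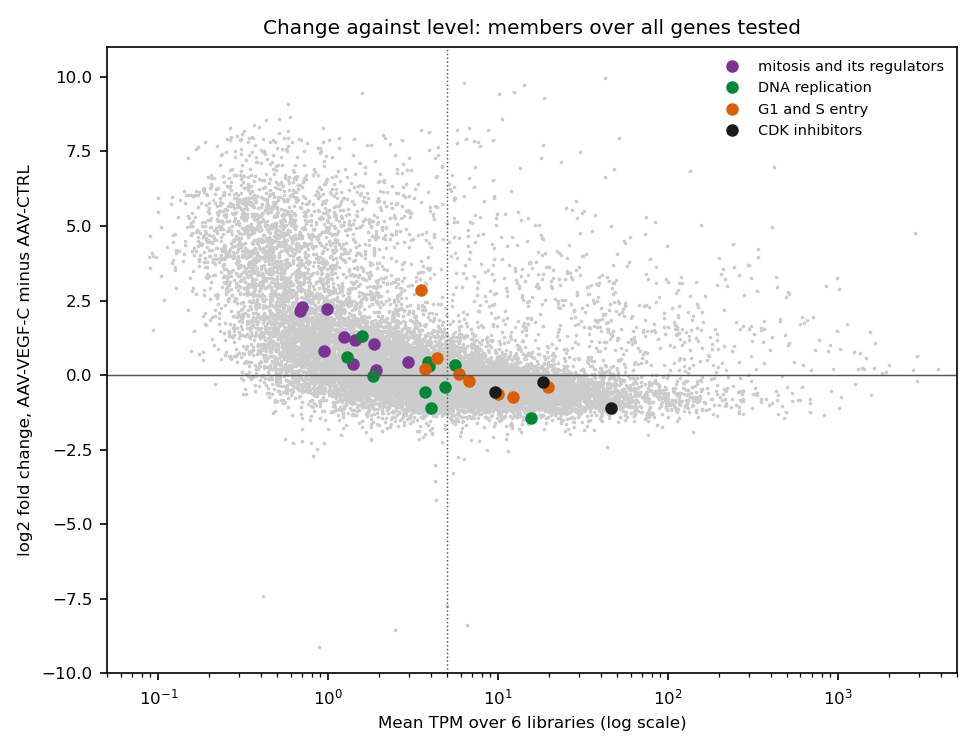
log2 fold change of every tested gene (grey) against its mean TPM over the 6 libraries (log scale), with the 31 tested cell cycle genes coloured by role; the dotted line marks 5 TPM. The mitosis genes lie at low levels where most genes are positive, and the CDK inhibitors and D-type cyclins lie at higher levels where most are negative.

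All 10 tested mitosis genes had positive log2 fold changes, from 0.17 to 2.29 with a median of 1.10, but only 1 was called. *Plk1* encodes polo-like kinase 1, which drives entry into mitosis, and lies on chromosome 7 at 122159439 to 122169873 (GRCm38, GENCODE M21). Its counts were 5, 10 and 19 in AAV-CTRL 1, 2 and 3 against 3, 5 and 23 in AAV-VEGF-C 1, 2 and 3, or 0.766, 1.27 and 1.53 CPM against 5.32, 3.49 and 7.05 CPM. Every AAV-VEGF-C library was higher in CPM, although the 95% exact intervals of AAV-VEGF-C 1 (1.10 to 15.5 CPM) and AAV-VEGF-C 2 (1.13 to 8.13 CPM) reached into the AAV-CTRL values. All AAV-CTRL values lay under the filter's cutoff of about 2.04 CPM. *Plk1* could thus be tested only with the groups apart, and that separation is no support for a rise. The log2 fold change was 2.29 (SE 0.591, adjusted p = 0.0452). With the replicate block the adjusted p was 0.0903, and without any 1 library it lay between 0.0859 and 0.197. In TPM, 0.185, 1.06 and 0.536 against 0.509, 0.568 and 1.34, the groups overlapped, and the log2(TPM + 1) difference was 0.19 (limma, adjusted p = 0.61). The span of *Gm44985*, on the other strand, covers part of an exon of *Plk1*. The use of strand in counting is not given in the sources used here, so that its reads may not be told apart. The same holds for *Ccna2*, *Cdk2*, *Cdk4*, *Cdk6*, *Ccnd1*, *Ccnd2*, *Ccnd3*, *Ccne2*, *Cdkn1a*, *Cdkn1c* and *Mcm7* and the genes opposite them. Spans of other genes on the same strand lie over exons of *Top2a*, *Foxm1* and *Mcm7*. Whether exons of the other genes overlap was not examined, so that these counts may be uncertain.

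The other 5 tested mitosis genes that did not overlap in CPM and differed by at least 1 on the log2 scale were *Aurkb*, *Kif11*, *Cenpf*, *Cenpe* and *Foxm1*. None was called by edgeR as described. Of these 5, picked for not overlapping, 4 had an unadjusted edgeR p under 0.05. Of all 17459 genes tested, 3315 were higher at that level. *Kif11* was called by DESeq2 (adjusted p = 0.0314), voom (0.032) and edgeR with no filter (0.0388). Scaled on the 2000 most abundant genes, edgeR called *Kif11* (adjusted p = 0.0335) and *Cenpf* (0.0342). *Aurkb*, the aurora kinase of the chromosomal passenger complex, had 0.613, 1.40 and 0.403 CPM in AAV-CTRL against 5.32, 3.49 and 2.45 CPM in AAV-VEGF-C, from 3, 5 and 8 counts in the latter (log2 fold change 2.22, SE 0.819, edgeR adjusted p = 0.122). *Kif11*, the kinesin that separates spindle poles, had 1.99, 3.31 and 1.45 CPM against 8.86, 4.88 and 13.5 CPM (2.14, SE 0.615, edgeR adjusted p = 0.0648). Both reached the cutoff of the filter on low counts in all AAV-VEGF-C libraries but not in all AAV-CTRL libraries. *Kif11* also reached it in AAV-CTRL 2. For *Aurkb* every AAV-CTRL value lay under the cutoff of about 2.04 CPM. It could thus be tested only with the groups apart, and that separation is no support for a rise. *Cenpf*, a large protein of the outer kinetochore, had 8.73, 8.78 and 7.66 CPM against 14.2, 27.2 and 13.8 CPM (1.28, SE 0.403, edgeR adjusted p = 0.0852). It was the steadiest of the 6 in TPM, at 0.840 ± 0.199 in AAV-CTRL against 1.64 ± 0.0782 in AAV-VEGF-C (SD, n = 3), with no overlap. *Cenpe*, a kinesin that aligns chromosomes, had 5.21, 4.96 and 3.87 CPM against 10.6, 9.76 and 8.89 CPM (1.18, SE 0.454, edgeR adjusted p = 0.138). *Foxm1*, the factor that switches on late genes, had 6.43, 6.75 and 4.60 CPM against 7.09, 7.67 and 17.8 CPM (1.03, SE 0.47, edgeR adjusted p = 0.199), and the groups were separated by less than the spread within AAV-VEGF-C.

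*Mki67* encodes Ki-67, the nuclear protein most used to stain cycling cells. It had 152, 434 and 327 counts in AAV-CTRL against 14, 57 and 140 counts in AAV-VEGF-C, or 23.3, 55.2 and 26.4 CPM against 24.8, 39.7 and 42.9 CPM. The groups overlapped throughout (log2 fold change 0.17, SE 0.405, edgeR adjusted p = 0.829), and the sign turned in 8 of the alternatives given in the closing section. *Top2a*, topoisomerase II of dividing cells and the most abundant mitosis gene at a mean of 2.93 TPM, had 9.04, 14.0 and 6.37 CPM against 10.6, 16.0 and 9.81 CPM (0.43, SE 0.478, edgeR adjusted p = 0.601). *Ccna2* and *Bub1b*, cyclin A2 and a spindle checkpoint kinase, had log2 fold changes of 0.80 and 0.37 and were not called. *Cdk1*, *Ccnb1*, *Ccnb2*, *Birc5*, *Bub1* and *Aurka* had at most 36 counts over a group's 3 libraries and were not tested. Among them *Ccnb1*, *Birc5*, *Bub1* and *Aurka* were at 0 in 1 or 2 AAV-VEGF-C libraries, where a count of 0 allows up to 5.32 CPM in library 1 and 2.09 CPM in library 2.

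**Figure D4:**
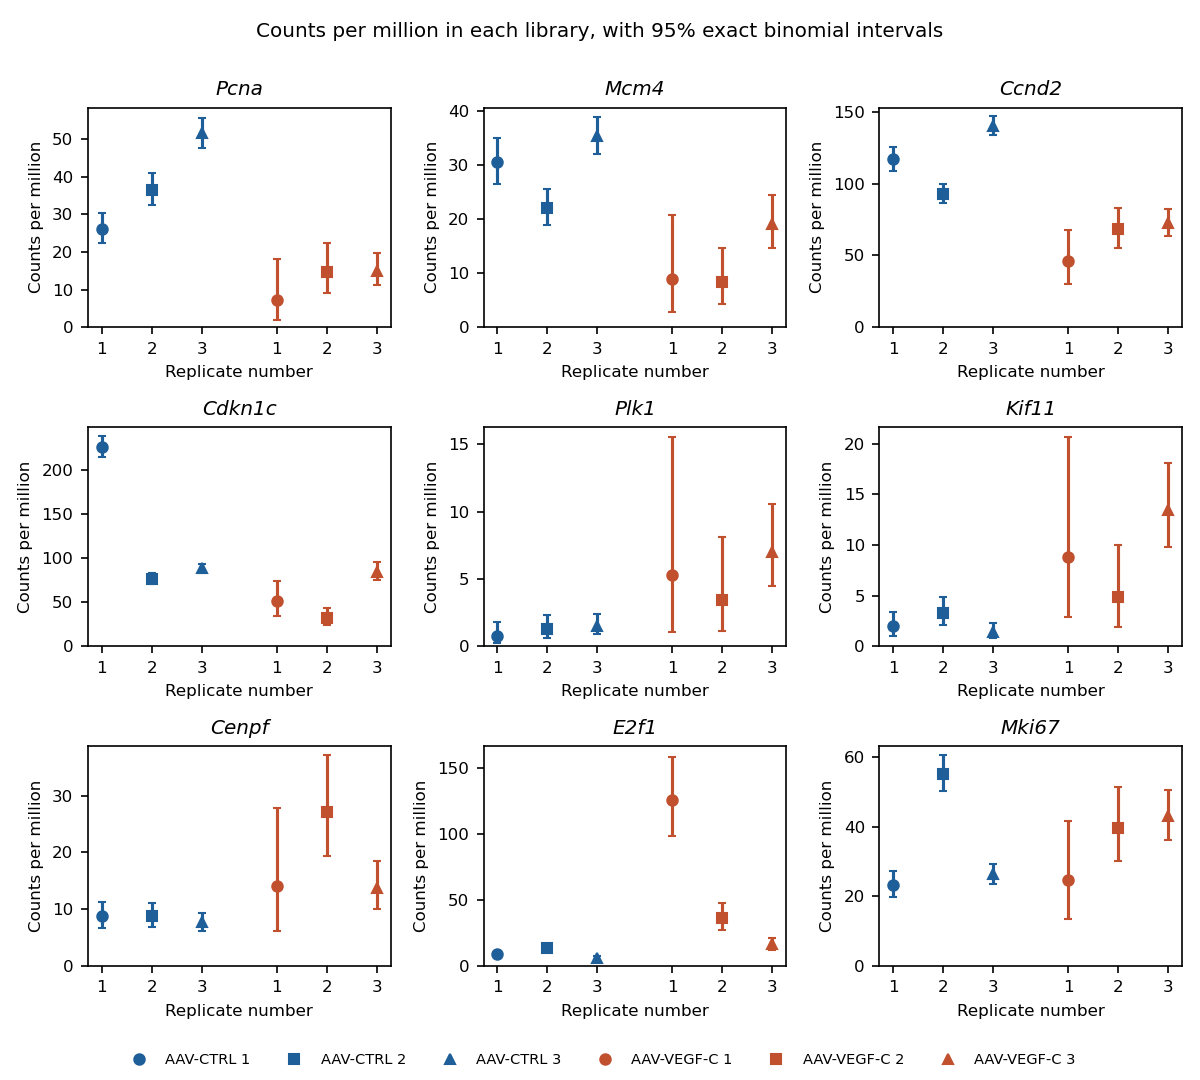
CPM of 9 genes in each library, with 95% exact binomial intervals that cover counting error only; axes start at 0. *Pcna*, *Mcm4* and *Ccnd2* are lower in every AAV-VEGF-C library, *Plk1*, *Kif11*, *Cenpf* and *E2f1* are higher in every one, and *Cdkn1c* and *Mki67* overlap.

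The 10 replication genes were all tested, and 5 had positive and 5 negative log2 fold changes around a median of 0.15. *Pcna*, the sliding clamp that holds DNA polymerase on its template, lies on chromosome 2 at 132249162 to 132253314. It had 171, 287 and 640 counts in AAV-CTRL against 4, 21 and 49 counts in AAV-VEGF-C, or 26.2, 36.5 and 51.6 CPM against 7.09, 14.6 and 15.0 CPM. All AAV-VEGF-C libraries were lower, and the highest upper limit of their 95% intervals met the lower limit of AAV-CTRL 1 at 22.4 CPM. The log2 fold change was -1.43 (SE 0.33, edgeR adjusted p = 0.0326), and with the replicate block it was -1.48 (adjusted p = 0.0191). In TPM it had 15.9, 22.4 and 41.8 against 1.32, 7.09 and 5.70, with no overlap. In the libraries numbered 1, where leukocyte markers were low in both groups, the values were 26.2 and 7.09 CPM. The call was kept in 7 of 18 alternatives and lost without any 1 library other than AAV-CTRL 1 (adjusted p = 0.0401 without it, 0.0596 to 0.097 without each of the others). The count can be shared with the near-identical pseudogene *Pcna-ps2*, which had 24, 55 and 52 counts in AAV-CTRL against 3, 3 and 20 counts in AAV-VEGF-C (log2 fold change -0.02, edgeR adjusted p = 0.991).

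*Mcm4*, a subunit of the replicative helicase, was the other replication gene that did not overlap, at 30.5, 22.0 and 35.3 CPM against 8.86, 8.36 and 19.0 CPM (log2 fold change -1.09, SE 0.373, edgeR adjusted p = 0.105). The MCM proteins form 1 ring, and their genes did not share a sign: *Mcm4*, *Mcm5* and *Mcm6* had log2 fold changes of -1.09, -0.02 and -0.57, and *Mcm2*, *Mcm3* and *Mcm7* had 0.43, 0.32 and 0.32. None of the 6 was called by edgeR with the filter on low counts, but *Mcm4* was called without it (-1.33, adjusted p = 0.033), and the signs of *Mcm3*, *Mcm5* and *Mcm7* turned in some alternatives. *Mcm7*, the second most abundant replication gene, had 9.80, 16.9 and 18.5 CPM against 10.6, 14.6 and 24.5 CPM. *Tyms*, which makes thymidylate, had the highest log2 fold change of this role, at 2.14, 2.42 and 4.19 CPM against 5.32, 4.18 and 9.50 CPM (1.30, SE 0.534, edgeR adjusted p = 0.159), and the groups met at 4.18 and 4.19 CPM. The subunits of ribonucleotide reductase, *Rrm1* and *Rrm2*, had log2 fold changes of -0.39 and 0.62 and were not called.

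Among the genes of G1 and S entry, 4 of the 8 tested were positive, the median log2 fold change was -0.09 and none was called by edgeR without the block. At an unadjusted p under 0.05, 1 was higher and 1 lower, beside 3315 and 1590 of all 17459 genes tested. *E2f1*, an activator E2F factor, lies on chromosome 2 at 154559407 to 154569892 and had 58, 108 and 74 counts in AAV-CTRL against 71, 52 and 53 counts in AAV-VEGF-C. Its count in AAV-VEGF-C 1 thus exceeded that in AAV-CTRL 1 although the library was far shallower. The values were 8.88, 13.7 and 5.97 CPM against 126, 36.2 and 16.3 CPM, with no overlap. Within AAV-VEGF-C the level of *E2f1* and that of the silent families (7051, 3730 and 2878 CPM in all) were highest in the same library, the shallowest. The log2 fold change was 2.87 (SE 0.861, edgeR adjusted p = 0.0748), 1.40 without AAV-VEGF-C 1 (adjusted p = 0.154) and 2.35 with the replicate block (SE 0.532, adjusted p = 0.0205). Without the block it was called by DESeq2 (2.85, adjusted p = 0.00584) and by edgeR on library totals alone (2.62, adjusted p = 0.0414), with scaling by the 2000 genes of highest mean TPM (3.29, adjusted p = 0.0456) and with no filter (2.50, adjusted p = 5.38e-06). Voom did not call it (1.44, adjusted p = 0.179). In TPM the groups overlapped, at 1.53, 2.67 and 1.65 against 8.80, 4.28 and 2.23.

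The D-type cyclins carry growth signals to CDK4 and CDK6. *Ccnd2*, cyclin D2, had 117, 92.9 and 140.5 CPM in AAV-CTRL against 46.1, 68.3 and 72.7 CPM in AAV-VEGF-C (log2 fold change -0.74, SE 0.255, edgeR adjusted p = 0.106), with no overlap. *Ccnd3*, cyclin D3, was the most abundant gene of the role at a mean of 19.5 TPM and had 86.8, 64.0 and 76.4 CPM against 40.8, 39.7 and 74.2 CPM (-0.41, SE 0.31, edgeR adjusted p = 0.425). *Ccnd1*, cyclin D1, was lowest in the libraries numbered 1 of both groups, with 3.0, 11.2 and 13.0 TPM in AAV-CTRL against 0.80, 5.24 and 7.41 TPM in AAV-VEGF-C (log2 fold change -0.21, edgeR adjusted p = 0.827). *Cdk4* was lower without overlap in CPM (-0.65, edgeR adjusted p = 0.29). *Cdk6*, *Cdk2* and *Myc* had log2 fold changes of 0.59, 0.22 and 0.03 and were not called, and the E-type cyclins *Ccne1* and *Ccne2* were not tested, with 43 and 26 counts over AAV-CTRL and 26 and 12 over AAV-VEGF-C.

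The CDK inhibitors were the most abundant role. None was called by edgeR with the filter on low counts, with 0 at an unadjusted p under 0.05, nor by DESeq2, voom or limma on log2 TPM. Without that filter edgeR called *Cdkn1c* lower (log2 fold change -1.35, adjusted p = 0.017). *Cdkn1c*, which encodes p57 and is kept in quiescent cells, was the highest of all 40 genes, with 111, 43.6 and 64.6 TPM in AAV-CTRL against 13.1, 10.9 and 31.8 TPM in AAV-VEGF-C. In CPM it had 226, 76.5 and 88.5 against 51.4, 32.8 and 84.9, and the groups overlapped (log2 fold change -1.10, SE 0.55, edgeR adjusted p = 0.235). *Cdkn1b*, p27, had 41.2, 32.1 and 67.8 CPM against 21.3, 36.2 and 25.7 CPM (-0.57, SE 0.329, edgeR adjusted p = 0.299). *Cdkn1a*, p21, a target of p53, had 46.4, 108 and 65.7 CPM against 54.9, 64.1 and 47.5 CPM (-0.23, SE 0.387, edgeR adjusted p = 0.741). All 3 were lower in TPM without overlap, as were 36.4% of all genes. *Cdkn2a*, the senescence-linked locus of p16 and p19, had 3, 0 and 0 counts in AAV-CTRL against 1, 0 and 0 counts in AAV-VEGF-C, at or under the floor of 3 counts in every library. A count of 0 allowed up to 0.382 and 0.242 CPM in AAV-CTRL 2 and 3 and up to 2.09 and 0.92 CPM in AAV-VEGF-C 2 and 3.

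**Figure D5:**
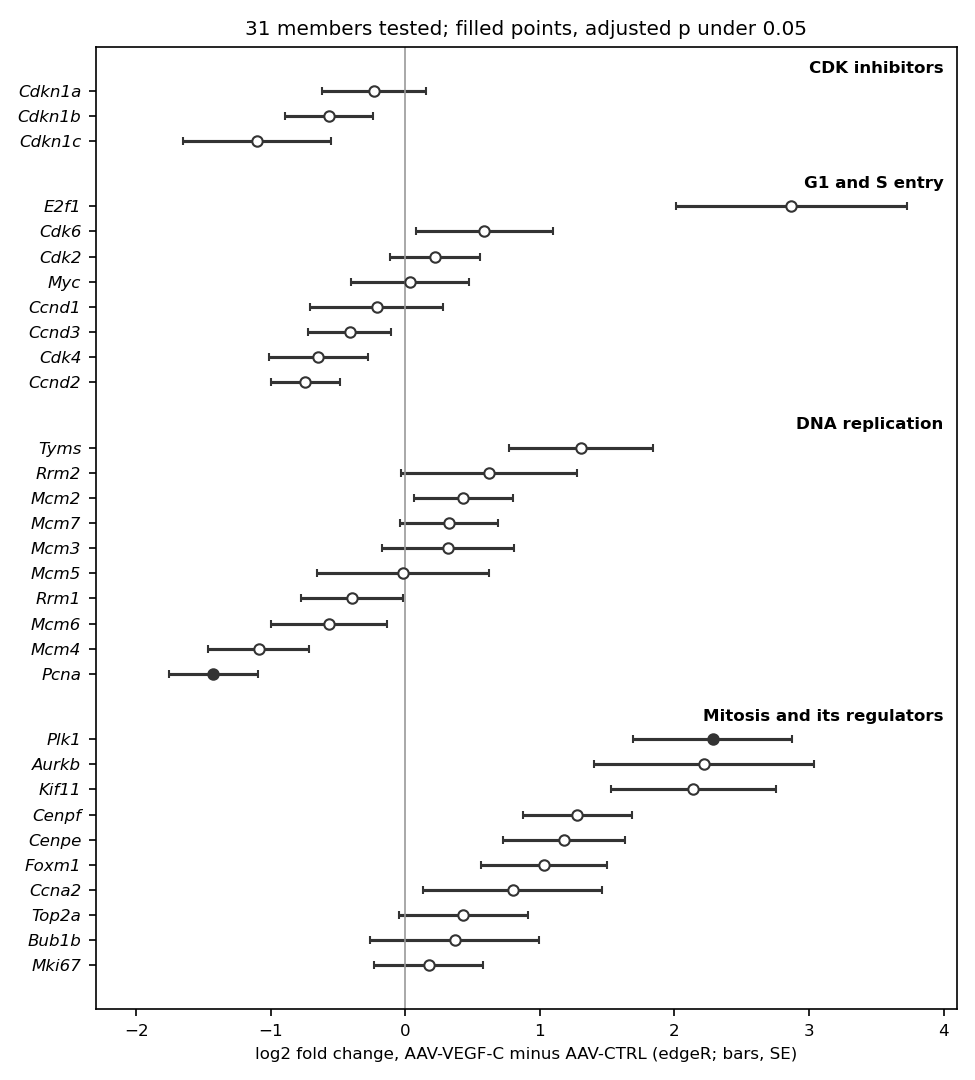
log2 fold change (AAV-VEGF-C minus AAV-CTRL) of the 31 tested genes by role, with bars of 1 SE from edgeR; filled points have an adjusted p under 0.05. The mitosis genes are all positive, from 0.17 to 2.29, the CDK inhibitors are all negative, the other roles lie on both sides of 0, and *Plk1* and *Pcna* are the filled points.

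The libraries numbered 1 were the lowest of their group in CPM in both groups for 10 of the 31 tested genes, beside 28.1% of all genes tested, and 7 of the 10 were the replication genes *Mcm2*, *Mcm3*, *Mcm5*, *Mcm6*, *Mcm7*, *Pcna* and *Rrm1*. The others were *Mki67*, *Ccnd1* and *Cdk6*. *Mcm5* had 2.45, 13.1 and 7.90 CPM in AAV-CTRL against 3.54, 7.67 and 8.89 CPM in AAV-VEGF-C. Leukocyte markers were also lowest in the libraries numbered 1, and their part in these values was not tested.

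Other genes of the same machinery were read from 3 wider lists. For comparison, 3315 of all 17459 genes tested were higher and 1590 lower at an unadjusted edgeR p under 0.05. Of 40 genes of origin licensing and the replisome, 34 were tested and none was called in either direction (median log2 fold change 0.09), with 3 higher and 2 lower at an unadjusted p under 0.05, 0 called by DESeq2 and voom and 1 lower on log2(TPM + 1). The smallest p values were those of *Rfc1*, a subunit of the clamp loader that opens PCNA (-0.98, SE 0.322, edgeR adjusted p = 0.0947), and *Tk1*, thymidine kinase (1.51, SE 0.567, edgeR adjusted p = 0.129). Of 40 genes of the spindle, kinetochore and cytokinesis, 26 were tested, 23 were positive (median 0.76), beside 6952 of the 10225 tested genes of any kind under 5 TPM, and none was called, with 3 higher and 0 lower at an unadjusted p under 0.05, 3 called higher by DESeq2 and 0 by voom or on log2 TPM. *Spc24*, of the NDC80 complex (2.06, SE 0.726, edgeR adjusted p = 0.11), and *Kif23*, a kinesin of cytokinesis (1.20, SE 0.437, edgeR adjusted p = 0.121), had the smallest p values. *Spc24* was among 6 of the 26 that reached the filter's cutoff in all AAV-VEGF-C libraries but not in all AAV-CTRL libraries. Its AAV-CTRL values all lay under the cutoff, so that it could enter the test only if higher in AAV-VEGF-C. Of 37 genes of RB, E2F and G1 control, 34 were tested and 1 was called (3 higher and 1 lower by DESeq2 and by voom): *Mybl2*, which encodes B-MYB, was higher (2.25, SE 0.503, edgeR adjusted p = 0.0296) on 14, 16 and 28 counts in AAV-CTRL against 6, 9 and 36 counts in AAV-VEGF-C. *Mybl2* also reached the filter's cutoff in all AAV-VEGF-C libraries but not in all of AAV-CTRL, although some AAV-CTRL libraries did. *Ccng1*, cyclin G1, a p53 target, followed (-1.22, SE 0.336, edgeR adjusted p = 0.0578), and was called lower with the block (adjusted p = 0.0454). Of 66 replication-dependent histone genes, whose RNA is made in S phase and whose near-identical copies make counts uncertain, 48 were tested and none was called, with 0 at an unadjusted p under 0.05, 1 called higher by DESeq2 and 0 by voom or on log2 TPM. The histone RNAs summed to 364, 580 and 707 TPM in AAV-CTRL against 85.0, 144 and 544 TPM in AAV-VEGF-C, and the groups overlapped.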

How the data were processed

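RNA of sorted dural LECs was sequenced in 6 libraries, 3 AAV-CTRL and 3 AAV-VEGF-C, made with a stranded low-input total RNA kit. As deposited, the tables hold estimated counts of each gene, with no scaling across libraries, and TPM, which the authors scaled for gene length and library total. The submitters' processing notes name FastQC, Trimmomatic, DRAGEN, Picard and mm10, and whether counting used strand or molecular identifiers is not given in the sources used here. Gene identifiers equalled those of GENCODE M21 on GRCm38 for 98.1% of 55401 genes with their version, so positions were taken from there. Every row named a gene.

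Groups came from the labels. Counts were rounded, filtered by filterByExpr (about 2.04 CPM in a group's number of libraries), scaled by TMM and tested with the quasi-likelihood test of edgeR (4.0.16, R 4.3.3) over all genes, with Benjamini-Hochberg adjustment and a threshold of 0.05. Alternatives were DESeq2 (1.42.0), the tool of the study, limma (3.58.1) on log2(TPM + 1) and log2(TPM + 0.1), voom with sample weights, other scalings and filters, drawing down, subtraction of the silent families' mean TPM, the replicate block and leaving out each library. CPM used library totals, with 95% Clopper-Pearson intervals and a floor of 3 counts, which cover counting error only. The limit given for a count of 0 is this floor over the library total. The exact interval reaches higher, to 6.54 CPM in AAV-VEGF-C 1. Values in every library are given for called genes, the 2 of highest mean TPM per role, the largest rise and fall per role, genes that did not overlap in CPM with a log2 fold change of at least 1, *Mki67* and the CDK inhibitors, and, from each wider list, the 2 genes of smallest p are named. The genes and lists were chosen with earlier results of these data known, and the histone list was widened after the symbols in the tables were seen. The labels give both groups the same experiment numbers, and the departures from the group mean in libraries of the same number correlated, over genes, at 0.369, 0.28 and 0.155, so the numbers were taken to pair them. Between different numbers the values ran from -0.395 to 0.216, and AAV-CTRL 3 correlated more with AAV-VEGF-C 2 (0.216) than with AAV-VEGF-C 3 (0.155). Chi-square per degree of freedom between libraries of a group was at least 7.7, so none was a repeat of another. On data simulated from these libraries, edgeR recovered 35% of 100 genes changed by 2 and 90% of 100 changed by 3 on the log2 scale, among 16340 tested. The changed genes left out those of lowest mean CPM, and as many were raised as lowered. The simulation had no raised background in AAV-VEGF-C, so recovery of the lowest genes in the real libraries was not measured.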

Additional observations from a re-analysis of the deposited data

How the results depend on the processing

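The cell cycle genes called higher and lower numbered 1 and 1, and they were 1 and 1 with DESeq2 size factors (the same genes) and with the replicate block. They were 1 and 0 on library totals alone (*E2f1*), 4 and 0 when scaled on the 2000 most abundant genes (*Plk1*, *Kif11*, *Cenpf* and *E2f1*), 2 and 3 with no filter (40 tested: *E2f1* and *Kif11*, and *Pcna*, *Cdkn1c* and *Mcm4*), 3 and 1 with DESeq2 (*Plk1*, *Kif11* and *E2f1*, and *Pcna*), 2 and 1 with voom (*Plk1* and *Kif11*, and *Pcna*), 0 and 1 on log2(TPM + 1), and 0 and 0 on log2(TPM + 0.1), for genes averaging 5 TPM or more (10 tested), with background subtracted (29 tested) and when drawn down (12 tested). Without each library in turn they were 0 and 0 to 1. Over all genes those fits called 1771 higher and 48 lower of 18198 without AAV-CTRL 1, and none without AAV-CTRL 2 or 3. They called 1233 and 43 of 20106, 8 and 0 of 20250, and 320 and 8 of 18549 without AAV-VEGF-C 1, 2 and 3. Of all genes tested, 2054 higher and 53 lower of 17459 were called on library totals. The counts were 2333 and 8 of 17459 when scaled on abundant genes, and 9382 and 1175 of 44563 with no filter. They were 5659 and 501 of 29204 with DESeq2, 2380 and 267 of 17459 with voom, and 1112 and 434 of 17459 on log2(TPM + 1). On log2(TPM + 0.1) they were 1281 and 163 of 17459. Genes averaging 5 TPM or more gave 9 and 0 of 7234, and subtraction of background 11 and 0 of 15328. Drawn down, they were 0 and 0 of 7600. The replicate block ended the call of *Plk1* (adjusted p = 0.0903) and added *E2f1* (0.0205), and changed no other call among these genes. *Plk1* was also lost on library totals (0.0584) and with no filter (0.0718), and *Pcna* on library totals (0.0508) and when scaled on abundant genes (0.0701). The scaling on abundant genes moved the median of all genes to 0.35, and that of the 31 genes to 0.68. The median of the 31 genes was -0.45 and -0.70 on log2(TPM + 1) and log2(TPM + 0.1). It was -0.11 over the 10 averaging 5 TPM or more. Without each library it was 0.0353 to 0.68 over the 34 to 37 then tested, so that these medians cover different genes.

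Signs turned only for genes that were not called. On log2(TPM + 1) and log2(TPM + 0.1) the differences were -0.18 and -0.55 for *Bub1b*, -0.21 and -0.48 for *Ccna2*, -0.41 and -0.51 for *Cdk2*, -0.28 and -0.65 for *Cdk6*, -0.48 and -0.70 for *Mcm3*, -0.27 and -0.33 for *Mcm7*, -0.45 and -0.70 for *Mki67*, -0.92 and -1.12 for *Myc*, -0.082 and -0.21 for *Rrm2*, and -0.55 and -1.01 for *Tyms*. *Mcm5* was 0.000403 with DESeq2 size factors, 0.0152 with the block, 0.37 scaled on abundant genes and 0.17 with voom. *Myc* was -0.0437 with DESeq2, -0.0217 on library totals and -0.22 with no filter, where *Cdk2* was -0.0427 and *Mki67* -0.0823. With background subtracted *Cdkn1a* was 0.0149 and *Mki67* -0.0173. *Ccnd1* and *Cdkn1a* were 0.13 and 0.16 for genes averaging 5 TPM or more, and 0.15 and 0.15 scaled on abundant genes. Drawn down, *Bub1b* was -0.0255, *Ccnd2* 0.00602, *Ccnd3* 0.95, *Cdk6* -0.67, *Cdkn1a* 0.46 and *Rrm1* 0.19. Without each library in turn, the values ran from -0.16 to 0.66 for *Mki67*, -0.65 to 0.0455 for *Ccnd1*, -0.50 to 0.16 for *Cdkn1a*, -0.46 to 0.60 for *Mcm5*, -0.16 to 0.86 for *Bub1b*, -0.37 to 0.31 for *Myc*, -0.0279 to 0.26 for *Cdk2*, -0.29 to 0.73 for *Mcm3*, -0.0914 to 0.41 for *Mcm7* and -0.14 to 0.92 for *Rrm2*. The cause was not tested, beyond the smaller numbers of genes or libraries named. Over all genes, leaving out AAV-CTRL 2 or AAV-CTRL 3 left 0 genes called. Depth limits the low genes most, with a limit of 5.32 CPM for a count of 0 in AAV-VEGF-C 1.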
